A study of Homo sapiens with 12 samples.

Results

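The laminin genes LAMA3, LAMB3, LAMA5, LAMB1 and LAMC1 were examined in ChIP-exo lists of PS-727-STAT3 (pSTAT3) and BCL9 binding in DCIS.COM, a basal-type human breast cancer cell line that models ductal carcinoma in situ. Their 5 loci, each the gene body plus 20 kb on each side on hg19, were chosen among 20090 protein-coding loci by gene name. They held 2584 of the 2591856 peak pairs of 11 lists. A peak pair is a pair of exonuclease stops on opposite strands, given by its midpoint and its signal. The lists came from BCL9-knockdown cells with the pSTAT3 antibody (n = 2) or the BCL9 antibody (n = 2), and from control cells with the pSTAT3 antibody (n = 3), the BCL9 antibody (n = 3) or a CTCF antibody (n = 1). The knockdown used a lentiviral shRNA and the control cells carried a non-silencing construct, and all libraries were made from cells grown in the same serum-containing medium. The labels call the replicates biological. An IgG library was not analysed here, and neither the loss of BCL9 protein nor the identity of the cells can be checked from peak lists.

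Laminins are heterotrimers of an α, a β and a γ chain that polymerise into the sheet of the basement membrane, the layer that separates a mammary duct from the stroma and that an in situ carcinoma has to cross to become invasive. LAMA3 encodes the α3 chain and LAMB3 the β3 chain of the laminin of hemidesmosomes, the epithelial anchor. LAMA5 encodes the α5 chain, and LAMB1 and LAMC1 encode the β1 and γ1 chains, which are shared by most other basement membrane laminins. STAT3 is a DNA-binding transcription factor, and BCL9 is a co-activator of β-catenin that does not itself recognise a DNA sequence. The third chain of the hemidesmosome laminin is not analysed here.

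List length differed widely between libraries, which bears on every value that follows. The pSTAT3 lists held 415624 and 493174 pairs in knockdown cells and 118933, 98665 and 374089 in control cells. The BCL9 lists held 95586 and 336493 pairs in knockdown cells and 28690, 24728 and 148755 in control cells, and the CTCF list held 457119. Locus values are therefore given as pairs, as pairs per 10000 pairs of the list (the share), as density relative to the genome mean, and at equal list length, that is among the 24728 strongest pairs of each library, as many as the shortest list held (ties at the limit count in part). Together the 5 loci held 10.01 and 9.81 pairs per 10000 in the knockdown pSTAT3 lists and 16.0, 13.8 and 10.9 in the control pSTAT3 lists. With the BCL9 antibody they held 13.8 and 9.72 per 10000 in knockdown cells and 26.1, 23.5 and 12.0 in control cells, against 3.94 in the CTCF list. Within each antibody and condition the longest list had the lowest share. Control replicate 1 of each antibody was labelled with a single sequencing run and the other libraries with several.

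The sequences below are the 100 bases round the strongest pair of 8 regions on the plus strand of GRCh37 (hg19). They are a selection from the regions of LAMB3, LAMA3, LAMB1 and LAMC1 described below, and not all of those found in most lists. Regions are merged 100 bp windows of the pSTAT3 and BCL9 pairs, and are numbered within a gene by how many lists held them and then by mean rank as a percent of the list. Capitals mark the AP-1 string TGACTCA or its reverse complement TGAGTCA, and the TEAD string GGAATG or its reverse complement CATTCC. No window shown held the STAT3 string TTCCNGGAA, which is its own reverse complement and can share letters with GGAATG.
LAMB3-1 (chr1:209826465-209826564, upstream of the gene start): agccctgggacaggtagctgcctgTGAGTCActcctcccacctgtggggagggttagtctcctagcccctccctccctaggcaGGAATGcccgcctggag
LAMB3-2 (chr1:209830655-209830754, further upstream): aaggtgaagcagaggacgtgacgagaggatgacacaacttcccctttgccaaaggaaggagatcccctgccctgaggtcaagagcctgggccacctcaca
LAMA3-2 (chr18:21452668-21452767, just before the start of the short LAMA3 transcript): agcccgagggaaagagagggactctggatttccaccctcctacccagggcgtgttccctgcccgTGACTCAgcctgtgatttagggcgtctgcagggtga
LAMA3-3 (chr18:21299650-21299749, intron of the long transcript): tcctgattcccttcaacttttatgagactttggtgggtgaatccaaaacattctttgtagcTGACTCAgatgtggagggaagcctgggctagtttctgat
LAMB1-1 (chr7:107636229-107636328, intron): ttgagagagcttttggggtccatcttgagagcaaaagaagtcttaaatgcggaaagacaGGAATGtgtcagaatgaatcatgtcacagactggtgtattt
LAMB1-2 (chr7:107593077-107593176, intron): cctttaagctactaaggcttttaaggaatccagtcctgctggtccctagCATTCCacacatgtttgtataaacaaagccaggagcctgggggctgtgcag
LAMC1-3 (chr1:183133643-183133742, downstream of the gene): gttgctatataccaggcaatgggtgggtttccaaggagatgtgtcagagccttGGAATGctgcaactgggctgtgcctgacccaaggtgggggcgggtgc
LAMC1-4 (chr1:183132620-183132719, downstream of the gene): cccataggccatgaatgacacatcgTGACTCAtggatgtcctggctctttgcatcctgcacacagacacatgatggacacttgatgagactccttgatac
AP-1 strings stood in LAMB3-1, LAMA3-2, LAMA3-3 and LAMC1-4, and TEAD strings in LAMB3-1, LAMB1-1, LAMB1-2 and LAMC1-3. The regions LAMA3-1, LAMB3-3, LAMC1-1 and LAMC1-2 were found in all 10 pSTAT3 and BCL9 lists but are not shown. They held neither string, so the shown windows do not give the share of regions with a string. A match is a description of the letters and not evidence of a bound factor.

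LAMB3 (chromosome 1, 209788215 to 209825770, minus strand) had the highest pair density of the laminin loci with both antibodies, relative to the genome mean. Its 77.6 kb window held 103 and 116 pairs in the knockdown pSTAT3 lists, and 57, 37 and 89 in the control pSTAT3 lists. It held 35 and 67 pairs in the knockdown BCL9 lists and 25, 17 and 52 in the control BCL9 lists. The density was 8.6 to 17.5 times the genome mean with pSTAT3 and 7.28 to 31.9 times with BCL9, against 2.80 times in the CTCF list. In each of the 10 pSTAT3 and BCL9 lists the locus was denser than at least 99.23% of all protein-coding loci, against 85.41% in the CTCF list. Relative to the 5 Mb on each side of the window, the fold was smaller, 4.00 to 6.59 with pSTAT3 and 3.25 to 9.13 with BCL9. By this local measure LAMB1 reached 4.27 to 9.90 with pSTAT3 and 6.43 to 35.2 with BCL9. It stood above LAMB3 in all lists but knockdown pSTAT3 replicate 1 (4.273 against 4.287).

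The LAMB3 pairs lay mostly in front of the gene. The part more than 1 kb upstream made up 24.5% of the window and held 59.7% of the pSTAT3 pairs on average (48.5% to 75.7% over 5 lists) and 53.5% of the BCL9 pairs (35.3% to 62.9%), against 14.3% of the CTCF pairs. Within 1 kb of the gene start there were 19 and 14 pairs in the knockdown pSTAT3 lists and 11, 7 and 16 in the control pSTAT3 lists. The BCL9 lists had 4 and 12 pairs there in knockdown cells and 9, 10 and 7 in control cells, and the CTCF list had none. All 10 pSTAT3 and BCL9 lists thus had pairs at this start, whereas 5.58% to 48.9% of all 20090 gene starts had a pair in the same lists.

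Of the regions at LAMB3 3 were found in all 10 pSTAT3 and BCL9 lists. LAMB3-1 began 398 bp upstream of the gene start (chr1:209826168-209826948). Its strongest pair had 67 and 118 tags in the knockdown pSTAT3 lists and 27, 40 and 83 in the control pSTAT3 lists. With the BCL9 antibody it had 24 and 36 tags in knockdown cells and 24, 51 and 71 in control cells, and CTCF had no pair there. LAMB3-2, which began 4668 bp upstream (chr1:209830438-209831790), held the pair with 139 tags in knockdown pSTAT3 replicate 2, the highest of any laminin locus in any of the 10 lists. LAMB3-3 (chr1:209827255-209827826) lay 1485 bp upstream and was weaker, with 9 to 36 tags in pSTAT3 lists and 7 to 20 in BCL9 lists.

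LAMA3 (chromosome 18, 21269417 to 21536186, plus strand) is transcribed from a distal start, which gives the long α3 transcript, and from an internal start, which gives the short form (start at 21452984). The starts differed in their listed pairs. Within 1 kb of the short transcript's start the pSTAT3 lists had 14 and 13 pairs in knockdown cells and 9, 4 and 6 in control cells. The BCL9 lists had 2 and 10 pairs there in knockdown cells and 6, 0 and 6 in control cells. Within 1 kb of the distal start 9 of the 10 lists had no pair and control BCL9 replicate 3 had 1. Lack of a pair was common, as only 5.58% to 48.9% of all 20090 gene starts had one in the same lists. CTCF showed the opposite placement, with 0 pairs at the short start and 4 at the distal start.

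LAMA3-2 reached over the short start (chr18:21452369-21453004) and was found in 9 of the 10 lists, all but control BCL9 replicate 2. Its strongest pair had 88 and 43 tags in the knockdown pSTAT3 lists, and 20, 17 and 39 in the control pSTAT3 lists. With the BCL9 antibody it had 10 and 17 tags in knockdown cells and 7 and 24 in control replicates 1 and 3. A second region 1110 bp upstream, LAMA3-1 (chr18:21451414-21451874), was found in all 10 lists, with 6 to 50 tags in pSTAT3 lists and 6 to 25 in BCL9 lists. LAMA3-3 (chr18:21299583-21300114), 30166 bp from the distal start, and LAMA3-4, 10457 bp before the short start, were each found in 9. Over its 306.8 kb window LAMA3 was less dense than LAMB3, at 2.08 to 3.89 times the genome mean with pSTAT3 and 1.84 to 4.19 times with BCL9, against 0.971 times with CTCF.

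**Figure D1:**
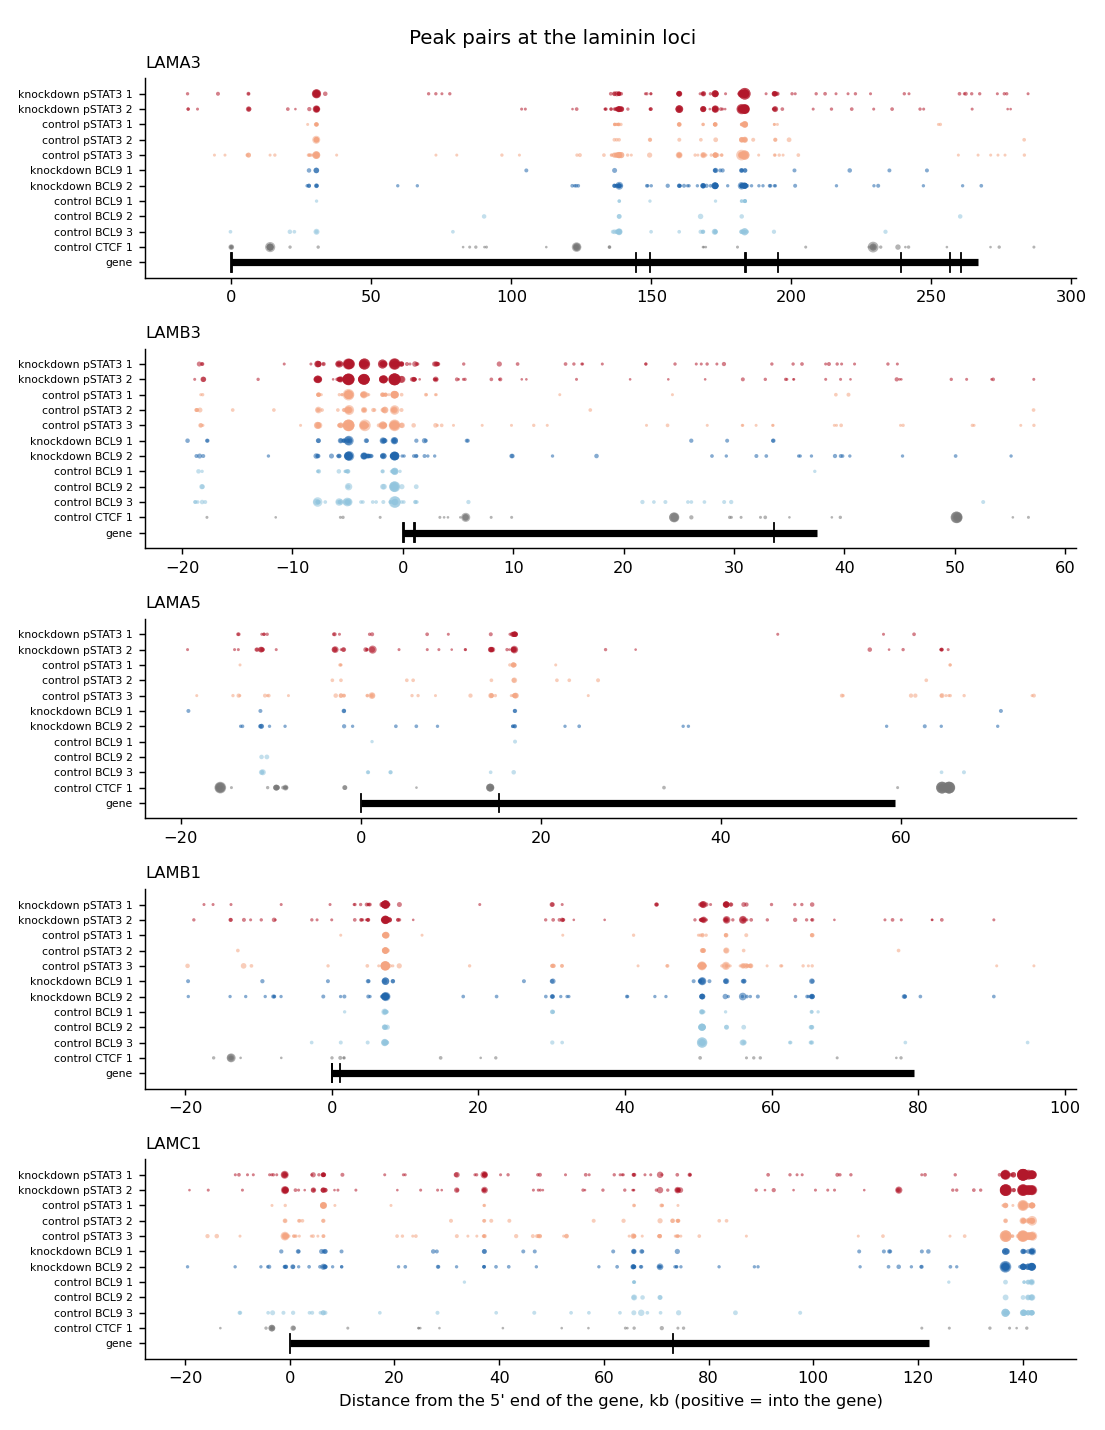
Peak pairs of each list (rows, knockdown above control, CTCF last) at the 5 laminin loci by distance from the 5′ end of the gene in kb, positive into the gene; dot area grows with tags up to 60 and black ticks on the gene bar are annotated starts. Pairs of both antibodies gathered in front of LAMB3, at the short start of LAMA3, in introns of LAMB1 and beyond the end of LAMC1.

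**Figure D2:**
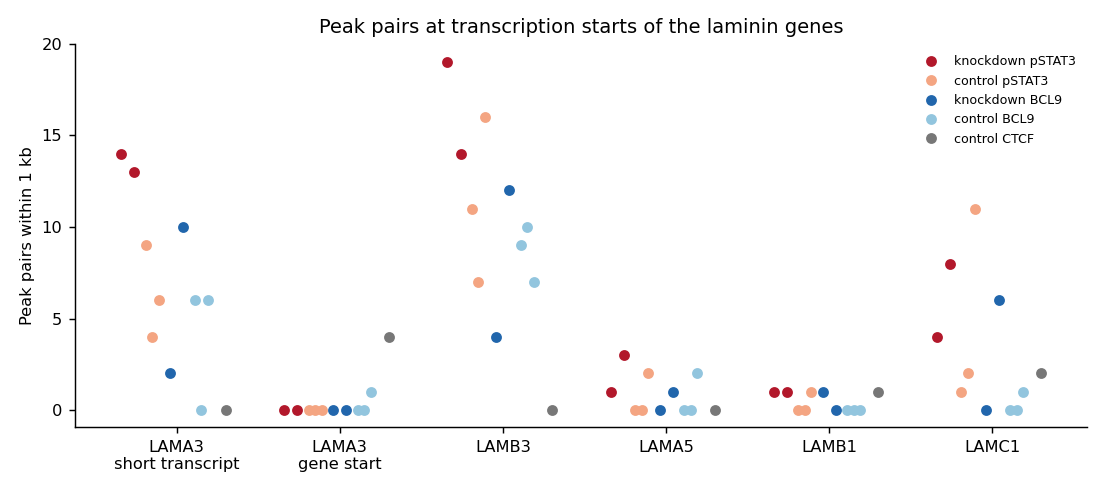
Peak pairs within 1 kb of the gene start of each laminin gene and of the start of the short LAMA3 transcript; each point is a list, with CTCF at the right of each set. LAMB3 had 4 to 19 pairs in every pSTAT3 and BCL9 list, and the distal LAMA3 start had 0 in 9 of 10.

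LAMB1 (chromosome 7, 107564244 to 107643658, minus strand) was bound within its introns. Introns outside the 1 kb round a start made up 59.7% of its window and held 87.5% of its pSTAT3 pairs on average (77.4% to 94.7%) and 87.7% of its BCL9 pairs (75.8% to 100%), against 40.9% of its CTCF pairs. The gene start itself had 0 or 1 pair in each of the 10 lists, where 5.58% to 48.9% of all gene starts had any. LAMB1-1 (chr7:107635924-107636570), 7036 bp from the main annotated start, and LAMB1-2 (chr7:107592851-107593490), 50116 bp from it, were found in all 10 lists.

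LAMB1 had the highest mean BCL9 density after LAMB3. Its window held 28 and 62 BCL9 pairs in knockdown cells and 20, 21 and 31 in control cells, or 6.96 and 4.38 times the genome mean against 16.6, 20.2 and 4.95 times. The pSTAT3 lists held 57 and 84 pairs in knockdown cells and 26, 19 and 69 in control cells, 3.26 to 5.19 times the genome mean, and CTCF stood at 1.14 times. The high control BCL9 values thus came from replicates 1 and 2, the shortest lists, and the groups overlapped. The strongest pair of LAMB1-2 ranked 1878 and 15486 in the knockdown BCL9 lists and 960.5, 997.5 and 610 in the control BCL9 lists, where rank 1 is the strongest pair of a list and tied pairs share a mean rank.

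LAMC1 (chromosome 1, 182992555 to 183114727, plus strand) had its strongest binding outside the gene. The downstream part, 12.3% of the window, held 46.5% of the pSTAT3 pairs on average (42.3% to 56.8%) and 48.7% of the BCL9 pairs (35.5% to 66.7%), against 17.2% of the CTCF pairs. All 4 of its regions found in every pSTAT3 and BCL9 list lay there, LAMC1-2 (chr1:183128980-183129522), LAMC1-4 (chr1:183132245-183132989), LAMC1-3 (chr1:183133289-183133879) and LAMC1-1 (chr1:183134118-183134955), the last of which ran past the window's edge. The nearest protein-coding start lay 20418 to 25851 bp from them and was not a LAMC1 start, so they belong to LAMC1 by position only. LAMC1-4 had 95 and 97 tags in the knockdown pSTAT3 lists and 54, 21 and 63 in the control pSTAT3 lists. With the BCL9 antibody it had 13 and 19 tags in knockdown cells and 6, 10 and 18 in control cells, and in each of the 5 pSTAT3 lists it stood above every BCL9 list in tags. Tags depend on the depth of a library, so this order is a description.

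The LAMC1 window as a whole held 123 and 123 pairs in the knockdown pSTAT3 lists and 44, 40 and 111 in the control pSTAT3 lists, 4.36 to 7.09 times the genome mean. It held 43 and 93 pairs in the knockdown BCL9 lists and 15, 12 and 48 in the control BCL9 lists, 4.83 to 9.14 times the genome mean. CTCF stood at 1.11 times.

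LAMA5 (chromosome 20, 60883011 to 60942368, minus strand) had the fewest pairs of the 5 loci in each pSTAT3 and BCL9 list, although not the lowest mean pSTAT3 density. It held 26 and 50 pairs in the knockdown pSTAT3 lists and 13, 11 and 46 in the control pSTAT3 lists. With the BCL9 antibody it held 7 and 24 pairs in knockdown cells and 2, 2 and 11 in control cells. Its density, 1.79 to 3.51 times the genome mean with pSTAT3 and 1.99 to 2.31 times with BCL9, was close to the 2.87 times of CTCF. No region at LAMA5 was in all 10 lists. LAMA5-1 (chr20:60925029-60925551), in an intron 16817 bp from the main annotated start and 1494 bp from the start of a shorter transcript, was in 9. Among the strongest 24728 pairs of a list LAMA5 had 0 to 3 in pSTAT3 lists and 0 to 2 in BCL9 lists, against 6 in the CTCF list.

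By mean density with pSTAT3 the order was LAMB3 (11.5 times the genome mean), LAMC1 (5.66), LAMB1 (4.29), LAMA5 (2.90) and LAMA3 (2.67). Only LAMB3 had a range apart from that of its neighbour, but within lists LAMC1 was denser than LAMB1, and LAMB1 denser than LAMA5, in 5 of 5. LAMA5 was denser than LAMA3 in 3 of 5. With BCL9 the order was LAMB3 (18.1), LAMB1 (10.6), LAMC1 (7.19), LAMA3 (2.56) and LAMA5 (2.11), and LAMB3 was denser than LAMB1 in 5 of 5 lists although their ranges overlapped. LAMB1 was denser than LAMC1 in 2 of 5 and LAMA3 denser than LAMA5 in 3 of 5. LAMC1 (4.83 to 9.14) had a range apart from that of LAMA3 (1.84 to 4.19). All these densities are per kb and relative to the genome mean, and the local measure given above placed LAMB1 over LAMB3 in most lists. By that measure LAMC1 reached 2.75 to 3.78 with pSTAT3 and 2.65 to 5.23 with BCL9, below LAMB1 in each list. LAMA5 reached 2.70 to 5.285 with pSTAT3 and 3.46 to 3.87 with BCL9, and LAMA3 reached 2.77 to 5.14 and 2.39 to 5.30. The local ranges of LAMC1, LAMA5 and LAMA3 thus overlapped with both antibodies.

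**Figure D3:**
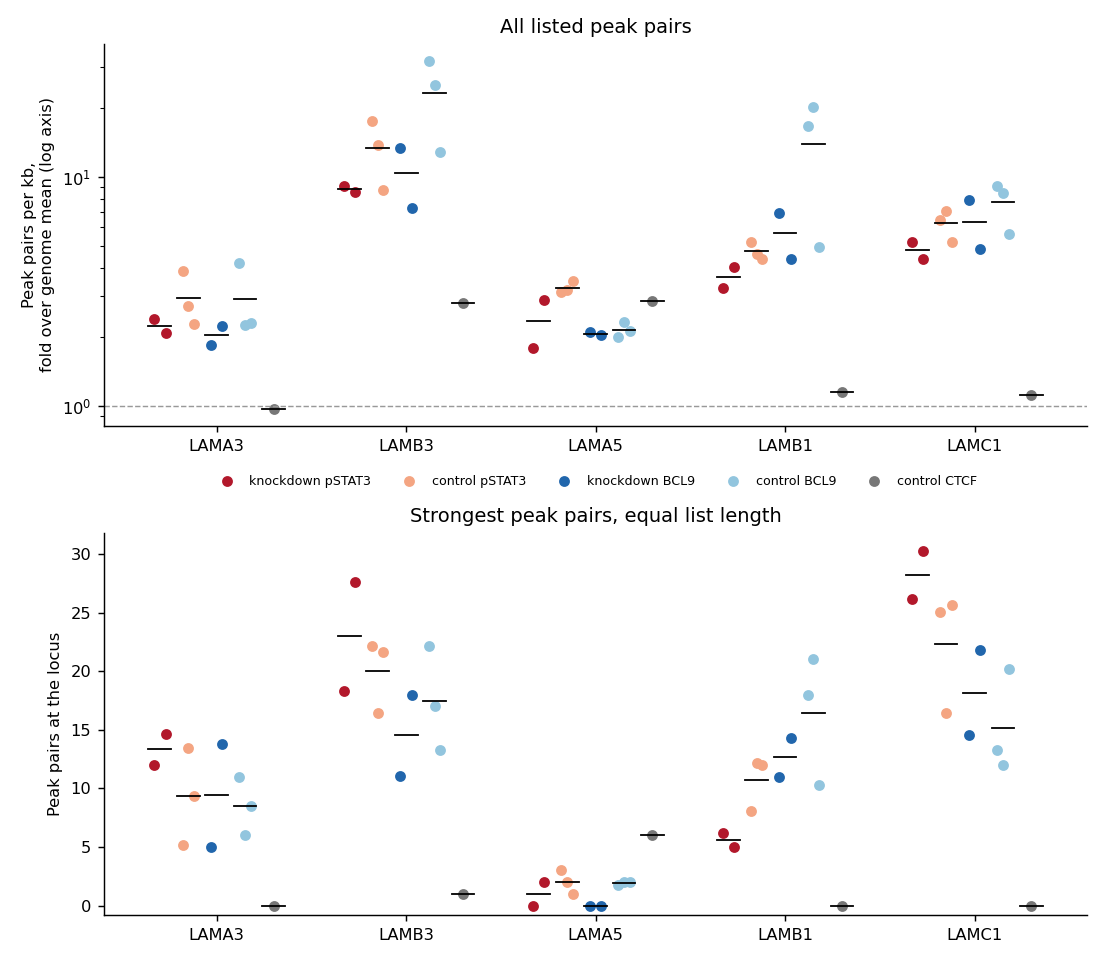
Peak pairs per kb as fold over the genome mean (top, log axis, dashed line at 1) and peak pairs among the 24728 strongest of each list (bottom) at the laminin loci; points are lists, bars are group means, and knockdown stands left of control with CTCF last. LAMB3 had the highest density of the 5 loci in each pSTAT3 and BCL9 list, with pSTAT3 up to 17.5 times the genome mean, and LAMA5 had at most 3 of the strongest pairs outside the CTCF list.

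Merging the 100 bp windows of the 10 pSTAT3 and BCL9 lists gave 649 regions at the 5 loci. Of these, 118 (18.2%) were found with both antibodies, against 8.99% of the 1106699 regions genome-wide. The share was 23.6% at LAMB1, 19.4% at LAMC1, 17.9% at LAMB3, 15.4% at LAMA5 and 14.9% at LAMA3. In all 10 lists there were 10 laminin regions (1.54%), against 0.263% genome-wide, with 4 at LAMC1, 3 at LAMB3, 2 at LAMB1 and 1 at LAMA3. A region merges more pairs where pairs are dense, so these shares and the densities above are not separate measures. Most laminin regions, 469 of 649, came from a single list, as did 949049 of 1106699 genome-wide.

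Whether BCL9 knockdown changed binding was asked by comparing knockdown with control lists of the same antibody. All 5 laminin loci had lower mean shares in the knockdown lists with both antibodies, but no difference passed the test at any locus in the genome, because 2 against 3 lists cannot give an exact p below 0.1. With pSTAT3 the log2 ratios were −0.38 for LAMA3, −0.54 for LAMB3, −0.55 for LAMA5, −0.39 for LAMB1 and −0.39 for LAMC1 (exact permutation p 0.1 to 0.3, two-sided, Benjamini-Hochberg adjusted p 0.994 over 11525 loci). The knockdown and control shares did not overlap at LAMA5, LAMB1 and LAMC1, with knockdown lower, a pattern shown by 11.7% of all tested loci. At LAMC1 they nearly met, with 2.959 per 10000 in knockdown replicate 1 and 2.967 in control replicate 3. LAMB1 had 1.37 and 1.70 pairs per 10000 in the knockdown pSTAT3 lists and 2.19, 1.93 and 1.84 in the control pSTAT3 lists. The median over all loci was 0.02 and that over the laminin loci −0.39.

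With the BCL9 antibody the log2 ratios after knockdown were −0.50 for LAMA3, −1.15 for LAMB3, −0.22 for LAMA5, −1.11 for LAMB1 and −0.33 for LAMC1 (exact permutation p 0.3 to 0.5, adjusted p 0.911 to 0.945). LAMB3 had 3.66 and 1.99 pairs per 10000 in knockdown cells and 8.71, 6.88 and 3.50 in control cells, so the groups overlapped. The shares did not overlap at LAMA3, with knockdown lower, as at 9.1% of all tested loci. The gap there was narrow, 2.407 per 10000 in knockdown replicate 2 against 2.426 in control replicate 2, which rests on 6 pairs. The median over all loci was 0.08 and that over the laminin loci −0.50. The knockdown lists were the longer ones on average, so the direction was also examined at equal list length.

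At equal list length 5 of these 10 directions turned, those of LAMA3 and LAMC1 with both antibodies and that of LAMB3 with pSTAT3. LAMB1 remained lower in knockdown cells with pSTAT3, with 6.16 and 5 of the strongest pairs against 8.06, 12.2 and 12 in control cells (log2 ratio −0.87), and the groups did not overlap, as at 4.75% of all loci in this direction. LAMC1 was then higher in knockdown cells, with 26.2 and 30.3 pairs against 25.03, 16.4 and 25.6 in control cells (log2 ratio 0.35), without overlap, as at 4.21% of loci. LAMA3 and LAMB3 had log2 ratios of 0.58 and 0.18 with pSTAT3. With BCL9, LAMA5 had 0 and 0 of the strongest pairs in knockdown cells and 1.71, 2 and 2 in control cells, a no-overlap pattern of 5.15% of loci that rests on very few pairs. The LAMB3 ratio with BCL9 was −0.27.

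**Figure D4:**
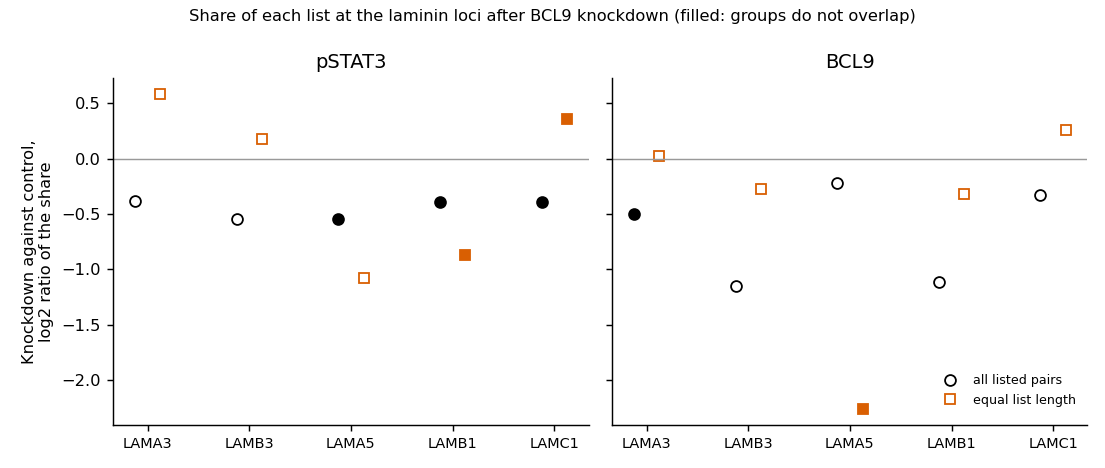
Log2 ratio of the share of a list at each laminin locus, knockdown against control, for pSTAT3 (left) and BCL9 (right), from all listed pairs (circles) and at equal list length (squares); filled symbols mark groups that did not overlap. With pSTAT3 LAMA3, LAMB3 and LAMC1 changed sign at equal list length, and LAMB1 kept it (−0.39 and −0.87).

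The shift of single regions within the lists varied. By the rank of its strongest pair, 1 of the 10 laminin regions found in all 10 lists stood nearer the top in both knockdown pSTAT3 lists than in any control pSTAT3 list, where 8.01% of 2908 such regions genome-wide did. This was LAMC1-3, at ranks 4301.5 and 5470 in knockdown cells and 18598.5, 7794.5 and 10853 in control cells. LAMB1-1 stood further down, at ranks 10497.5 and 12986.5 in knockdown cells against 4285.5, 3733.5 and 4069.5 in control cells, as 18% of regions did. With BCL9, LAMB3-2 stood nearer the top in knockdown cells (ranks 574.5 and 652.5, against 3685.5, 997.5 and 1800.5 in control cells), as did 9.01% of regions. LAMB3-1 (ranks 3063 and 1144.5, against 137.5, 64.5 and 117.5 in control cells) and LAMB1-2 stood further down, as did 15.4% of regions. Raw ranks reach further down in longer lists. By rank as a percent of the list, chosen after seeing the data, LAMC1-3, LAMC1-4 and LAMB3-3 stood nearer the top with pSTAT3 (as 26% of regions did), LAMB3-2 and LAMB3-3 with BCL9 (27.9%), and none further down.

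**Figure D5:**
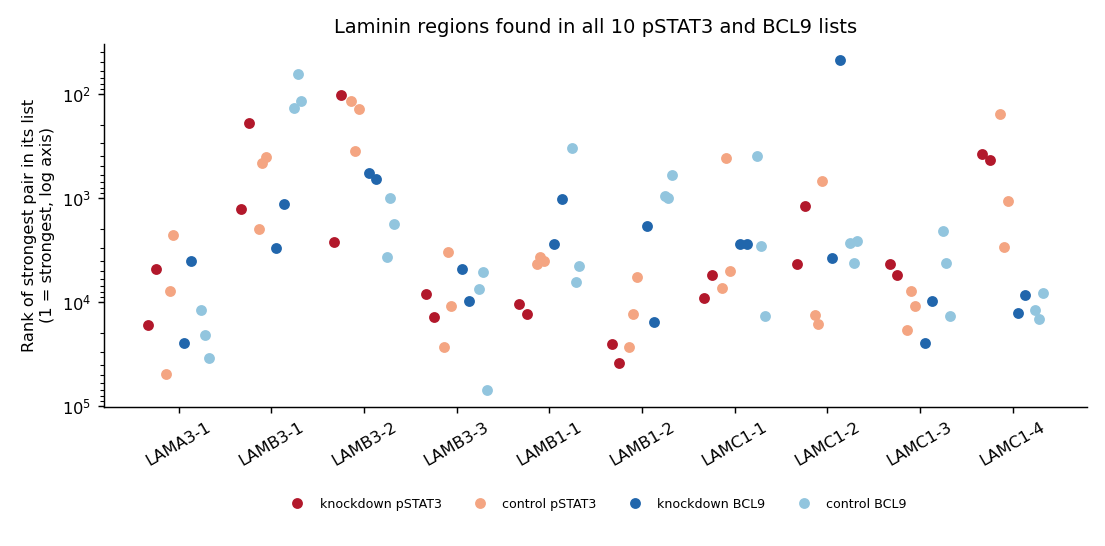
Rank of the strongest pair of each of the 10 laminin regions found in all pSTAT3 and BCL9 lists, with rank 1 the strongest pair of the list (log axis, best ranks on top); points are lists, knockdown left of control. LAMC1-2 reached rank 48 in knockdown BCL9 replicate 2 and LAMB3-1 rank 64.5 in control BCL9 replicate 2.

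Regions found in both knockdown lists and in no control list numbered 13 of 649 with pSTAT3 (1.71% genome-wide) and 9 of 649 with BCL9 (0.627% genome-wide). The reverse pattern, in all 3 control lists and in no knockdown list, was not seen at the laminin loci with either antibody. Genome-wide it was seen in only 116 of 1106699 regions with pSTAT3 and 42 of 1106699 with BCL9. Its absence among 649 regions is thus uninformative, and the directions are unlike, as this one needs 3 lists with the region and the other 2. Longer knockdown lists have more regions of their own, and the part of list length in these counts was not tested.

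The antibodies were then compared over conditions, with 5 pSTAT3 lists against 5 BCL9 lists. No laminin locus passed the adjusted threshold, and 0% of the 11525 tested loci did in either direction. At an unadjusted exact p under 0.05 there were 1786 loci, none of them a laminin locus. The largest ratio was that of LAMB1, with 1.81 ± 0.30 pairs per 10000 in pSTAT3 lists and 4.46 ± 3.06 in BCL9 lists (SD, n = 5 each), a log2 ratio of −1.05 (exact permutation p = 0.0556, adjusted p = 0.326). LAMB3 had 3.15 ± 1.09 in pSTAT3 lists and 4.95 ± 2.76 in BCL9 lists (log2 ratio −0.54, exact p = 0.262). LAMC1 had a log2 ratio of −0.35, LAMA5 of 0.29 and LAMA3 of 0.05, with exact p from 0.159 to 0.794. At equal list length LAMB1 kept its direction (−0.78) while LAMB3 (0.39) and LAMC1 (0.59) turned.

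The sequence under the pairs differed between the laminin genes. In 100 bp windows at LAMA3, AP-1 strings were found in 27.4% ± 5.44 of pSTAT3 windows and 19.7% ± 14.0 of BCL9 windows (SD, n = 5 lists each), against 13.5% and 8.26% of all windows of those lists. They were in more windows than in the whole list for 5 of 5 pSTAT3 and 4 of 5 BCL9 lists. TEAD strings at LAMA3 were in 4.38% ± 1.60 of pSTAT3 and 1.28% ± 1.79 of BCL9 windows, above the whole list in 0 of 5 lists of each antibody. At LAMB1 AP-1 strings were in 5.44% ± 3.95 of pSTAT3 and 4.92% ± 2.98 of BCL9 windows, fewer than in the whole list for 5 of 5 pSTAT3 and 4 of 5 BCL9 lists. There TEAD strings were found in 20.7% ± 8.0 of pSTAT3 and 24.6% ± 7.47 of BCL9 windows, against 8.06% and 8.95% of all windows, and above the whole list in all 10 lists. LAMB3 held both, with TEAD strings in 12.4% ± 2.68 of pSTAT3 and 18.6% ± 6.9 of BCL9 windows and AP-1 strings in 12.3% ± 1.34 and 16.5% ± 5.65. The AP-1 share at LAMB3 was above the whole list in 1 of 5 pSTAT3 and 4 of 5 BCL9 lists.

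These windows overlap one another and are not independent. Of the 129 LAMA3 windows with an AP-1 string, 89 lay in the regions LAMA3-2, LAMA3-3 and LAMA3-4, and of the 81 LAMB1 windows with a TEAD string, 68 lay in LAMB1-1 and LAMB1-2. In LAMB3-1, 32 of 93 windows held the AP-1 string and 40 a TEAD string. The STAT3 string was rare, in 0.668% ± 0.433 of pSTAT3 and 0.551% ± 0.632 of BCL9 windows at the 5 loci, against 0.453% and 0.400% of all windows. Of the regions in all 10 lists, 2.89% genome-wide held it and 0 of the 10 at the laminin loci did. An AP-1 string was in 48.9% of such regions genome-wide and in 3 of the 10 laminin ones. A TEAD string was in 48% genome-wide and in 5 of the 10. With 10 laminin regions these shares cannot be told apart. The strings searched for C/EBP (TTGCGCAA) and ETS (ACCGGAAGT) were in no 100 bp laminin window, and in 0.0512% and 0.0289% of all pSTAT3 windows and 0.0836% and 0.0389% of all BCL9 windows. All strings were searched on both strands. RUNX (TGTGGTT) was in 2.09% of pSTAT3 and 3.05% of BCL9 windows, and TCF (CTTTGAT) in 2.15% and 2.67%, against 3.09% and 3.76% and against 1.44% and 1.37% of all windows. At LAMC1 the TCF string was in 6.53% ± 4.40 of BCL9 windows, above the whole list in 5 of 5 lists, but in only 10 of 211 windows. In pSTAT3 windows of LAMC1 it was in 1.45% ± 1.30, above the whole list in 2 of 5.

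Of 22 other genes of basement membranes and their receptors, 20 had enough pairs to be tested and none passed the adjusted threshold in any comparison. Their median log2 ratio of pSTAT3 to BCL9 was −0.03, that of all loci −0.03. The highest ratios were those of COL17A1, a hemidesmosome collagen (1.39), COL4A1, a chain of the basement membrane's type IV collagen (1.08), and ITGB1, the β1 integrin (0.65). The lowest were those of NID2, a laminin-binding nidogen (−1.60), LAMA1, the α1 laminin chain (−0.80), and ITGB4, the hemidesmosome integrin β4 (−0.77). Most of these ratios rest on few pairs in some lists. The lowest count in a list was 0 at COL17A1 and COL4A1, 1 at ITGB1 and NID2, 2 at LAMA1 and 7 at ITGB4. ITGA3, a laminin receptor chain, had a density of 15 times the genome mean with pSTAT3 and 18.5 times with BCL9. After knockdown, shares were lower without overlap at COL4A1 and COL4A2 with pSTAT3, and at LAMA1, PLEC, CD151 and HSPG2 with BCL9, that is 2 and 4 of the 20 tested, as at 11.7% and 9.1% of all loci. They were higher without overlap at DAG1 with pSTAT3 and LAMB4 with BCL9, 1 of 20 each, as at 9.74% and 12.5% of all loci.

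The loci whose log2 share was most like that of a laminin over the 10 lists were IGFL4 (Pearson r = 0.991), S100A1 (0.981) and NT5E (0.981) for LAMB3, and ST3GAL5 (0.987), ENSG00000268083 (0.98) and SAP30BP (0.976) for LAMB1. For LAMC1 they were PNMA8A (0.965), ZBTB38 (0.96) and XDH (0.957), for LAMA3 B3GALT5 (0.941), MIEN1 (0.936) and TSC22D2 (0.934), and for LAMA5 COL1A1, CLDN9 and TNFRSF12A (0.779 to 0.859). Among the laminins LAMB3 was most like LAMC1 (0.914) and LAMB1 (0.883), and least like LAMA5 (0.192). All loci share the 10 lists and their lengths, and these values are a description over 10 points.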

How the data were processed

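ChIP-exo libraries of DCIS.COM cells were analysed from 1 list of peak pairs per library. The unit of the lists is signal, as deposited by the authors. Within a list all values were multiples of a constant, taken as 1 tag, and served for ranks and tags. The submitters' processing notes name bcl2fastq and hg19. No aligner is given in the sources used here, and the paper's methods name ChExMix for peak calling. The paper took consensus peaks from merged replicates. The lists used here are per library, so the regions counted here are not those peaks. Read depth was not used. Loci were GENCODE version 44 genes lifted to GRCh37, plus 20 kb on each side. Shares were log2 of (pairs + 0.5) per 10000 listed pairs, compared by exact two-sided permutation of lists and adjusted by Benjamini-Hochberg over 11525 loci with a mean of at least 5 pairs. With 5 against 5 lists the smallest p is 0.00794, which 588 loci had, and an adjusted p under 0.05 would have needed 1830 of them. Regions merged 100 bp windows. Text names all members, up to 4 regions per locus in most lists, the best one within 1 kb of a start, and 3 like loci each. Of the basement membrane list it names the 3 highest and 3 lowest antibody ratios, and ITGA3 and the non-overlapping genes were added after their values were seen. Members and lists were chosen with earlier results of these data known. Scripts were tested on simulated data. Alternatives were equal list length, at least 9 tags, no flanks, merged windows, a local reference, the replicate block, leaving out lists and wider windows. Python 3.11.15, numpy 2.4.6, pandas 2.3.3, matplotlib 3.10.9 and pysam 0.24.0 were used.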

Additional observations from a re-analysis of the deposited data

Results flagged for a closer look

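The share of the list at LAMA3 in control BCL9 replicate 1 was 4.53 pairs per 10000, far above the 1.99 to 2.49 of the other 4 BCL9 lists. It rests on 13 pairs in a list of 28690. Of 12 sets of 5 lists examined in this way, chance would set about 1 in 20 apart if the lists of a set were alike. The BCL9 lists were not alike, as they mix conditions and lengths. Control BCL9 replicate 1 also had the highest share over the 5 loci together, 26.1 pairs per 10000.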

How the results depend on the processing

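For the 5 loci together the log2 ratio of shares was −0.43 for knockdown against control with pSTAT3, −0.75 with BCL9 and −0.42 for pSTAT3 against BCL9. At equal list length these became 0.13, −0.16 and 0.24. Leaving out each list in turn gave −0.58 to −0.31, −1.10 to −0.50 and −0.59 to −0.23. The other settings kept the direction of the 3 values. Single loci reversed at equal list length with pSTAT3 (LAMA3 0.58, LAMB3 0.18, LAMC1 0.35), with BCL9 (LAMA3 0.0224, LAMC1 0.26) and between antibodies (LAMB3 0.39, LAMC1 0.59). With at least 9 tags LAMA3 reversed with BCL9 (0.50). Without flanks LAMB3 reversed with pSTAT3 (0.99) and BCL9 (0.16), as did LAMC1 with BCL9 (0.17) and LAMA3 between antibodies (−5.46e-05). With merged windows LAMA3 (−0.40) and LAMA5 (−0.0384) reversed between antibodies. Leaving out 1 list turned LAMC1 with BCL9 without knockdown replicate 2 (−0.68 to 0.0273 over the lists) and LAMA3 between antibodies without control pSTAT3 replicate 1 or knockdown BCL9 replicate 1 (−0.10 to 0.25). The cause was not tested. No alternative brought a laminin locus past the adjusted threshold (lowest adjusted p 0.145).

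The replicate block, which could use only shared numbers, gave −0.58 with pSTAT3, −1.10 with BCL9 and −0.42 between antibodies. Same-numbered lists correlated at −0.06 to 0.11 in their deviations from group means, so the numbers were not taken to pair the lists.

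Requiring at least 2 lists of each antibody left 40 of the 118 shared regions, and 29524 of 99535 genome-wide. In 200 bp windows AP-1 strings were in 22.1% of pSTAT3 and 18.1% of BCL9 windows, against 21.4% and 14.5% of all windows. TEAD strings were in 18.8% and 26.5%, against 15% and 16.5% of all windows. The ETS string was then in 1 pSTAT3 window, at LAMA5. By rank as a percent of the list, an alternative chosen after seeing the data, 3 laminin regions stood nearer the top in both knockdown pSTAT3 lists and 2 in both knockdown BCL9 lists, where 26% and 27.9% of all regions did. None stood further down with either antibody. Depth was not used here, and a pair missing from a short list is not a sign of unbound DNA.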
